A study of Mus musculus with 16 samples.

Results

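A group of 41 protein-coding genes had higher RNA levels in dorsal hippocampus given a Dnmt3a2 virus than in dorsal hippocampus given a control virus, both 1 day and 5 days after fear conditioning. The genes were chosen by that pattern: the lowest of the 4 Dnmt3a2 libraries exceeded the highest of the 4 Control libraries at each day. Of 16907 genes in the deposited log2 CPM values (CPM is a gene's count relative to the library total), 54 met both conditions, which is 0.319%, and 13 of them with symbols set aside by the rule were left out, among them Dnmt3a, Penk, Net1, Htr2a, Grem1, Fst, Frem3, Ecm2, Calb1, Mc4r, Gabra2 and Dlg2. The levels of the 41 genes in Dnmt3a2 against Control are therefore a description, and no test of that difference is given for them. The differences were small: the median fitted fold was 1.18 at 1 day and 1.16 at 5 days, and a fold of 1.5 or more was reached by 1 gene at 1 day (BC030499) and 2 at 5 days (BC030499 and Cacng6).

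Mice received a recombinant adeno-associated virus (rAAV) into dorsal hippocampus that drove either GFP, the Control, or exogenous Dnmt3a2. They underwent contextual fear conditioning 3 weeks afterwards, and tissue was taken 1 or 5 days after training, so every group, Control included, carried a virus and had been conditioned. RNA sequencing gave 16 libraries, 4 for each of Control 1 day, Dnmt3a2 1 day, Control 5 days and Dnmt3a2 5 days. The labels give no strain, age, sex, promoter or serotype, and do not say whether the 4 libraries of a group came from separate mice. The fitted errors below therefore reflect spread between libraries, estimated jointly over all 16 libraries and across genes.

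Dnmt3a2 is the short isoform of the DNA methyltransferase Dnmt3a, an enzyme that adds methyl groups to cytosines, mostly where a C is followed by a G (a CpG). Methylation of CpG-rich promoters is usually associated with silence of the gene, whereas methylation inside gene bodies is common in expressed genes. In the rodent hippocampus Dnmt3a2 is known as an isoform induced by neuronal activity that affects the persistence of fear memory. The files used here hold RNA levels, in which Dnmt3a2 cannot be separated from the longer isoform. Gene positions below are from the GENCODE annotation of GRCm38.p6.

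Library totals lay between 28.6 M and 29.96 M estimated counts. Dnmt3a itself was measured at 32.8 to 37.8 CPM in the 8 Control libraries and at 623 to 1250 CPM in the 8 Dnmt3a2 libraries. Marker genes of the labelled tissue were present: 12 of 13 CA1 pyramidal markers summed to 1327 to 1552 CPM over all libraries, and 16 of 16 dentate granule markers to 1526 to 1919 CPM. Replicate 1 of Dnmt3a2 at 1 day and at 5 days stood apart in choroid plexus markers, all 17 of which were measured, with summed levels of 1221 and 1889 CPM against 149 to 393 CPM in the other 14 libraries. Replicate 1 of Control 1 day, Dnmt3a2 1 day and Dnmt3a2 5 days had the highest summed levels of 26 interferon-response genes (669, 758 and 719.7 CPM, against 267 to 417 CPM in the other 13 libraries). The median log2 difference of the 41 genes was 0.24 at 1 day and 0.21 at 5 days over all libraries, 0.26 and 0.21 without the choroid-rich pair, and 0.25 and 0.21 without the interferon-rich trio. Tissue was measured in bulk, so fewer cells of a type and less RNA per cell cannot be told apart.

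All 41 genes passed the filter on low counts. Non-overlapping higher levels were found in 277 of 16907 genes (1.64%) at 1 day and 510 (3.02%) at 5 days, and non-overlapping lower levels at both days in 66 genes (0.39%). Among the 41 genes the fitted log2 difference ranged from 0.06 to 0.85 at 1 day and from 0.08 to 1.29 at 5 days, whereas the median over all 16899 genes tested was 0.0029 at 1 day and 0.0081 at 5 days. In 21 of the 41 genes every one of the 8 Dnmt3a2 libraries exceeded every one of the 8 Control libraries with the days combined, a pattern seen in 31 of all genes (0.183%). A gene with that pattern meets both day conditions by definition, so the share of all genes is no independent comparison. The 3 genes nearest to the threshold on the inside were Gpd1, Clint1 and Tia1, whose lowest Dnmt3a2 value was 1.00035, 1.00124 and 1.00129 times the highest Control value at the closer day. The 3 nearest on the outside were Rtn4rl1, Capn3 and Cpe, at 0.999931, 0.99986 and 0.999436 times. With a demanded margin of 1.1 times, BC030499 and Igsf1 remained. Bnip2, Fgfr1op2, Galnt9, Sema6c and Sirpa no longer met the rule either without the TMM scaling factor of the deposited values or with upper-quartile factors in its place. Arpc5, Gpd1, Pnck, Schip1, Sntb2 and Tia1 were lost with upper-quartile factors only, and Bmi1, Clint1, Clk2, Lrch3 and Tle1 without the TMM factor only.

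**Figure D1:**
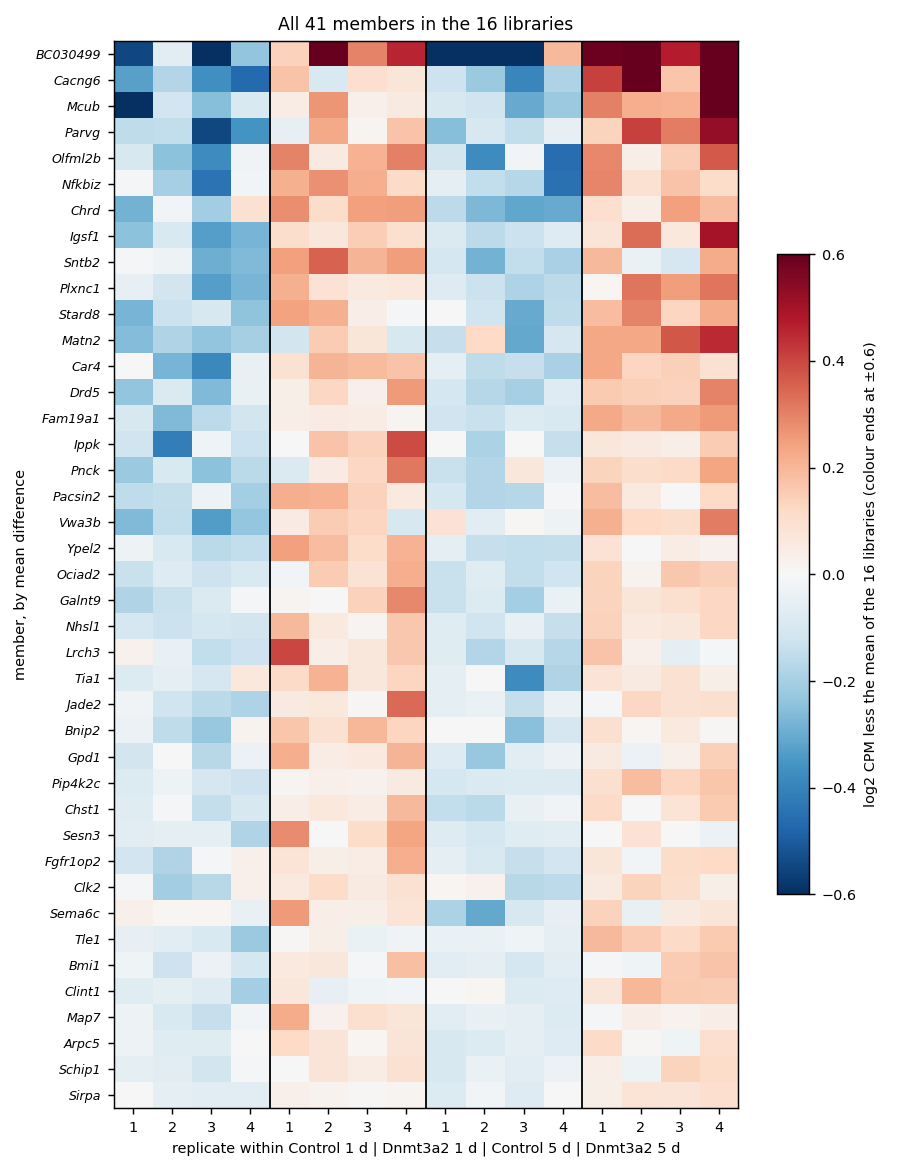
Log2 CPM of each of the 41 genes (rows, ordered by mean difference) in the 16 libraries (columns, 4 per group), less the gene's mean over the libraries; colours end at ±0.6. Both Dnmt3a2 blocks are red and both Control blocks blue in nearly all rows, as the choice of genes fixes, and the top rows differ most.

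By edgeR's quasi-likelihood test with Benjamini-Hochberg adjustment over all genes, 15 genes (0.0888%) were called at 1 day, 9 of them (0.0533%) higher in Dnmt3a2, and 54 (0.32%) at 5 days, 25 of them (0.148%) higher. DESeq2 called 0.349% of genes at 1 day and 0.918% at 5 days. These shares are the background for the relatives and pathway genes below, where a gene is called at an adjusted p under 0.05 in edgeR's test unless another tool is named. The 41 genes themselves were chosen on that contrast, and their calls are not given. A relative described as not called is therefore not contrasted with its member, which need not have been called either.

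Of the 3 genes of calcium handling, Cacng6 and Mcub had the largest mean differences after BC030499. Cacng6 (ENSMUSG00000078815, chromosome 7, 3424195 to 3435667, plus strand) encodes a gamma subunit of voltage-gated calcium channels. Its level was 1.95, 2.16, 1.89 and 1.77 CPM in Control and 2.75, 2.29, 2.62 and 2.56 CPM in Dnmt3a2 at 1 day, and 2.24, 2.09, 1.86 and 2.15 CPM and 3.24, 4.05, 2.74 and 3.97 CPM at 5 days, given here and below with Control first and replicates 1 to 4 in order. The 5-day Dnmt3a2 libraries 1, 2 and 4 were the 3 highest of all 16, while at 1 day the lowest Dnmt3a2 library lay just above the highest Control library. The fitted fold was 1.33 (log2 0.41 ± 0.16, SE) at 1 day and 1.70 (log2 0.76 ± 0.15, SE) at 5 days, with n = 4 libraries per group as for all values here. Mcub (ENSMUSG00000027994, chromosome 3, 129914960 to 129970206, minus strand) encodes a paralogue of the mitochondrial calcium uniporter pore that reduces its conductance. Mcub was measured at 1.98, 2.798, 2.54 and 2.84 CPM in Control and 3.13, 3.64, 3.099 and 3.15 CPM in Dnmt3a2 at 1 day, then at 2.84, 2.79, 2.46 and 2.598 CPM and 3.73, 3.52, 3.51 and 4.91 CPM at 5 days. All 8 Dnmt3a2 libraries exceeded all 8 Control libraries, and replicate 4 of Dnmt3a2 at 5 days was the highest. The folds were 1.29 and 1.48 (log2 0.37 ± 0.15 and 0.56 ± 0.15, SE). Pnck, a calcium/calmodulin-dependent kinase of the CaM kinase I family, differed by 1.22-fold at 1 day and 1.16-fold at 5 days.

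None of the other 6 tested uniporter-complex genes was called at either day. Micu2, a regulatory subunit, gave log2 differences of 0.13 (SE 0.072) at 1 day and 0.08 (SE 0.072) at 5 days, and the pore gene Mcu gave -0.07 (SE 0.07) and -0.02 (SE 0.07). None of the other 6 tested gamma subunits was called by edgeR: Cacng2, an auxiliary subunit of AMPA receptors, gave 0.19 (SE 0.057) and 0.15 (SE 0.057), and Cacng7 gave -0.18 (SE 0.064) and -0.28 (SE 0.064). DESeq2 called Cacng7 lower at 5 days (adjusted p = 0.00697, against 0.065 in edgeR) and not at 1 day. Cacng6 and Mcub were measured at 2.52 and 3.10 CPM over all libraries, and the SEs of their log2 differences, 0.15 to 0.16, compare with a median SE of 0.068 over the 41 genes at 1 day.

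**Figure D2:**
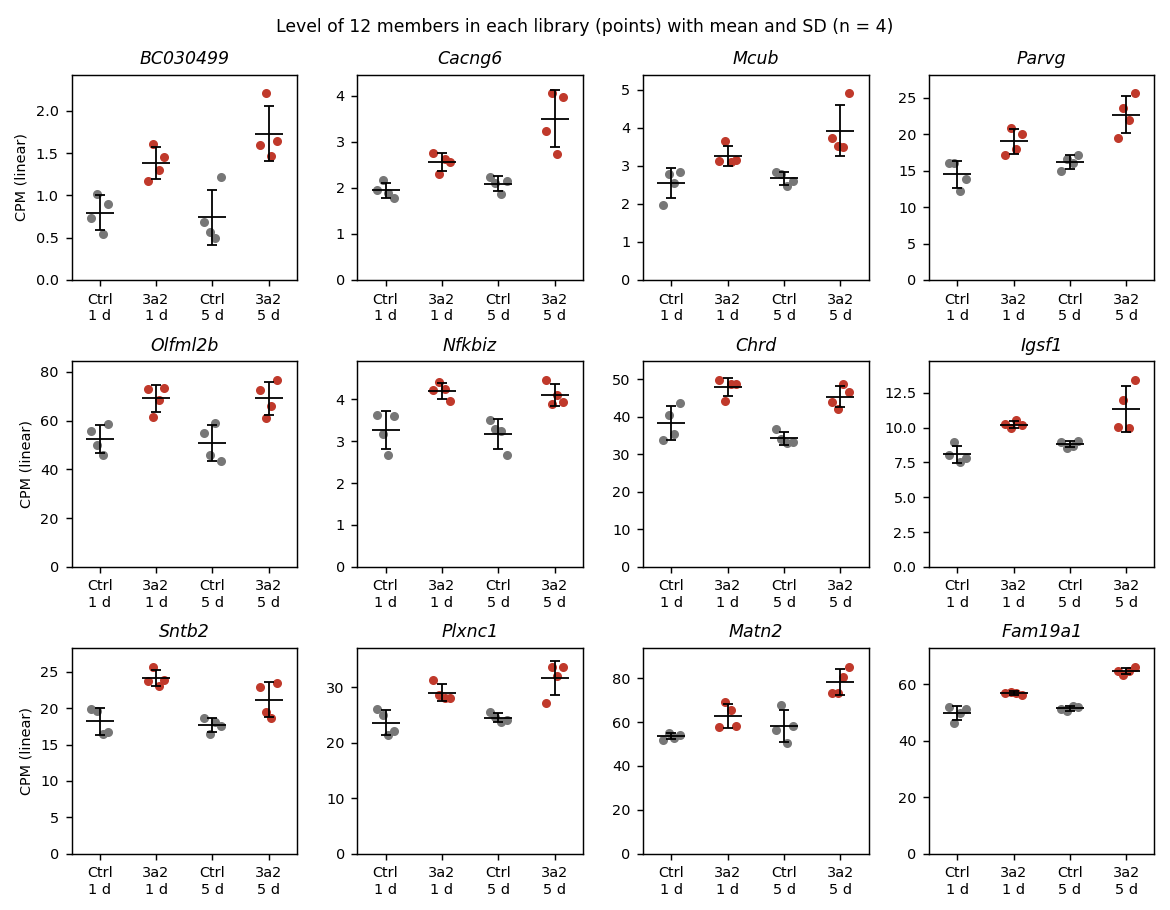
CPM (linear axis from 0) of the 10 genes with the largest mean difference, and of Matn2 and Fam19a1, in each library (points) with mean and SD of 4 libraries; Ctrl is Control and 3a2 is Dnmt3a2. Matn2 spans 50.4 to 67.7 CPM in Control and 57.8 to 85.2 CPM in Dnmt3a2, with its 4 highest values in Dnmt3a2 at 5 days.

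Secreted and matrix proteins were represented by 4 genes, whose log2 differences ranged from 0.19 to 0.40 at 1 day and from 0.33 to 0.45 at 5 days. Chrd (ENSMUSG00000006958, chromosome 16, 20733127 to 20742384, plus strand) encodes chordin, a secreted antagonist that binds bone morphogenetic proteins (BMPs). Chrd was measured at 33.7, 40.6, 35.4 and 43.6 CPM in Control and 49.8, 44.3, 48.7 and 48.8 CPM in Dnmt3a2 at 1 day, and at 36.8, 34.1, 33.02 and 33.2 CPM and 44.1, 42.2, 48.7 and 46.6 CPM at 5 days. The gap between groups was narrow at 1 day, where the highest Control library nearly reached the lowest Dnmt3a2 library, and wider at 5 days. Folds were 1.25 and 1.32 (log2 0.32 ± 0.075 and 0.40 ± 0.075, SE). An exon of Chrd overlaps 239 bp of Thpo on the opposite strand, and Thpo, at 7.12 CPM, gave log2 differences of 0.38 (SE 0.14) and 0.30 (SE 0.14). The labels do not state whether counting used strand, so reads of the overlap cannot be assigned.

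Chrd is 1 of 28 tested genes in a list of the TGF-beta, activin and BMP pathway, and none of the other 27 was called by edgeR at either day. With Chrd included, the list had 20 genes above 0 at 1 day and 21 at 5 days, with median log2 differences of 0.07 and 0.05 beside 0.0029 and 0.0081 over all genes. Of the listed BMP antagonists and ligands, Nog, encoding noggin, gave 0.12 (SE 0.12) and 0.21 (SE 0.12). Bmp4 gave 0.31 (SE 0.19) and -0.13 (SE 0.19). Bmp2 gave -0.0056 (SE 0.20) and 0.46 (SE 0.20), and Bmp6 gave 0.09 (SE 0.31) and 0.42 (SE 0.31). The chordin relative Chrdl1, outside the list, gave 0.23 (SE 0.12) and -0.19 (SE 0.11), and none of these was called. The list holds neither Grem1, encoding the BMP antagonist gremlin, nor Fst, encoding follistatin, which binds activins: both met the conditions of the 2 days and were set aside by the rule, so the list is not a count of all genes of this kind.

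Olfml2b (ENSMUSG00000038463, chromosome 1, 170644532 to 170682789, plus strand), a secreted olfactomedin-domain protein, was measured at 55.6, 50.1, 45.8 and 58.6 CPM in Control and 72.98, 61.7, 68.6 and 73.2 CPM in Dnmt3a2 at 1 day, and at 55.1, 45.8, 58.9 and 43.3 CPM and 72.6, 61.2, 65.9 and 76.6 CPM at 5 days. All 8 Dnmt3a2 libraries exceeded all 8 Control libraries, with folds of 1.32 and 1.36 (log2 0.40 ± 0.1 and 0.45 ± 0.1, SE). Matn2 (ENSMUSG00000022324, chromosome 15, 34306677 to 34436273, plus strand), matrilin-2 of the extracellular matrix, had 51.98, 54.9, 52.96 and 54.3 CPM in Control and 57.8, 69.3, 65.6 and 58.3 CPM in Dnmt3a2 at 1 day, against 56.6, 67.7, 50.4 and 58.2 CPM and 73.2, 73.3, 80.8 and 85.2 CPM at 5 days. Replicate 2 of Control at 5 days was high, above 3 of the 4 Dnmt3a2 libraries of 1 day. Fam19a1 (ENSMUSG00000059187, chromosome 6, 96113154 to 96657198, plus strand), also called Tafa1, encodes a small secreted chemokine-like protein of the brain. Its levels were 51.95, 46.2, 49.7 and 51.4 CPM in Control and 57.1, 57.4, 57.1 and 56.1 CPM in Dnmt3a2 at 1 day, and 51.1, 50.5, 52.3 and 52.1 CPM and 64.9, 63.4, 64.8 and 66.2 CPM at 5 days. The 4 highest libraries were the Dnmt3a2 libraries of 5 days, the next 4 those of 1 day, and all 8 Control libraries lay below. Its relatives Fam19a2 (-0.07, SE 0.064, and -0.06, SE 0.063) and Fam19a5 (0.03 and 0.02, SE 0.057 each) were not called.

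Cell-surface genes numbered 5: Igsf1, Plxnc1, Drd5, Sema6c and Sirpa. Drd5 (ENSMUSG00000039358, chromosome 5, 38319367 to 38322518, plus strand) encodes the D5 dopamine receptor, a D1-like receptor that raises cyclic AMP and is expressed in hippocampal neurons. Drd5 stood at 21.97, 24.4, 21.6 and 25.1 CPM in Control and 26.6, 28.2, 26.5 and 30.95 CPM in Dnmt3a2 at 1 day, and at 24.1, 23.04, 22.6 and 24.6 CPM and 28.9, 28.6, 28.5 and 31.9 CPM at 5 days. No Dnmt3a2 library of either day fell below any Control library, and replicate 4 was the highest Dnmt3a2 library at both days. The folds of Drd5 were 1.21 and 1.25 (log2 0.27 ± 0.069 and 0.32 ± 0.068, SE). Drd1, at 3.61 CPM, gave log2 differences of 0.27 (SE 0.20) and 0.38 (SE 0.19), and Drd2 gave 0.07 and 0.04 (SE 0.16 each); neither was called. The antisense transcript Gm26560 overlaps 1531 bp of a Drd5 exon, at 0.898 CPM over all libraries.

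Plxnc1 (ENSMUSG00000074785, chromosome 10, 94790866 to 94944835, minus strand) encodes plexin C1, the receptor of semaphorin 7A. It was measured at 26.03, 24.9, 21.4 and 22.2 CPM in Control and 31.2, 28.6, 28 and 28.1 CPM in Dnmt3a2 at 1 day, and at 25.6, 24.6, 23.7 and 24.2 CPM and 27.1, 33.6, 32.01 and 33.7 CPM at 5 days. Replicate 1 was the lowest Dnmt3a2 library at 5 days and the highest at 1 day, and all 8 lay above all Control libraries. The folds were 1.23 and 1.29 (log2 0.29 ± 0.076 and 0.37 ± 0.076, SE). The other 8 plexins were not called, and the semaphorin Sema6c, a transmembrane ligand, was closer to its threshold with folds of 1.07 and 1.16. Igsf1 (ENSMUSG00000031111, chromosome X, 49782536 to 49797749, minus strand), an immunoglobulin-superfamily membrane glycoprotein, had 8.01, 8.93, 7.56 and 7.84 CPM in Control and 10.2, 9.96, 10.5 and 10.2 CPM in Dnmt3a2 at 1 day, and 8.95, 8.53, 8.69 and 9.01 CPM and 10.04, 11.98, 9.95 and 13.4 CPM at 5 days. The gap was 1.1-fold or more at both days, the property that set Igsf1 and BC030499 apart under the margin above. Sirpa (ENSMUSG00000037902, chromosome 2, 129592835 to 129632228, plus strand), the receptor that binds CD47, was the other extreme, with 384, 370.4, 368 and 368 CPM in Control and 392.4, 389.8, 387 and 389 CPM in Dnmt3a2 at 1 day, and 363, 380.3, 364 and 384 CPM and 394, 407, 406 and 412 CPM at 5 days. The groups were separate at both days, by a few CPM at 1 day, and the folds of 1.04 and 1.08 were the smallest at 1 day and among the smallest at 5 days.

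The cytoskeleton, adhesion and membrane traffic held 11 genes (Parvg, Sntb2, Stard8, Pacsin2, Nhsl1, Lrch3, Bnip2, Clint1, Map7, Arpc5 and Schip1), with median log2 differences of 0.24 at 1 day and 0.18 at 5 days. Parvg (ENSMUSG00000022439, chromosome 15, 84324026 to 84342978, plus strand) encodes gamma-parvin, an adaptor at integrin adhesions. It was measured at 15.98, 16.05, 12.2 and 13.8 CPM in Control and 17.2, 20.8, 17.98 and 20.03 CPM in Dnmt3a2 at 1 day, and at 14.9, 16.6, 16.02 and 17.2 CPM and 19.5, 23.6, 21.96 and 25.6 CPM at 5 days. Control was lowest in replicate 3 of 1 day, and Dnmt3a2 highest in replicate 4 of 5 days; replicate 4 of Control at 5 days lay just above replicate 1 of Dnmt3a2 at 1 day. The folds were 1.31 and 1.40 (log2 0.39 ± 0.097 and 0.49 ± 0.096, SE), whereas Parva gave 0.07 (SE 0.068) and 0.01 (SE 0.068) and Parvb 0.13 (SE 0.086) and -0.02 (SE 0.086), neither called.

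Sntb2 (ENSMUSG00000041308, chromosome 8, 106935750 to 107019714, plus strand) encodes beta-2 syntrophin, an adaptor of the dystrophin complex. Its levels were 19.9, 19.7, 16.4 and 16.7 CPM in Control and 23.8, 25.7, 23.1 and 23.9 CPM in Dnmt3a2 at 1 day, and 18.7, 16.5, 18.2 and 17.5 CPM and 22.96, 19.5, 18.7 and 23.5 CPM at 5 days. At 5 days replicates 2 and 3 of Dnmt3a2 lay close to the Control libraries, and the fold was 1.20 against 1.33 at 1 day. Stard8 (ENSMUSG00000031216, chromosome X, 99003248 to 99074728, plus strand), a GTPase-activating protein with a START lipid-binding domain, had 8.73, 9.67, 9.93 and 8.95 CPM in Control and 12.5, 12.3, 10.9 and 10.5 CPM in Dnmt3a2 at 1 day, and 10.6, 9.76, 8.59 and 9.53 CPM and 12.1, 13, 11.6 and 12.3 CPM at 5 days. Its folds were 1.24 and 1.27, with 1 Control library of 5 days above 1 Dnmt3a2 library of 1 day. Stard8 is also 1 of 16 tested genes in the neocortex marker list. At either day edgeR called none of the other 15, and the medians, Stard8 included, were -0.03 and -0.04. The related Stard13 gave 0.23 (SE 0.087) and 0.25 (SE 0.086), not called at either day.

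Arpc5 (ENSMUSG00000008475, chromosome 1, 152766542 to 152775597, plus strand), a subunit of the actin-branching Arp2/3 complex, and Schip1 (ENSMUSG00000027777, chromosome 3, 68064802 to 68626481, plus strand) were among the 6 genes with the highest CPM. Arpc5 had 172, 167, 167 and 175 CPM in Control and 190.2, 185, 177 and 185 CPM in Dnmt3a2 at 1 day, and 164, 166, 169 and 166 CPM and 189.7, 176, 173 and 188 CPM at 5 days. Schip1 had 148, 147, 142 and 152 CPM in Control and 154, 162, 158 and 163 CPM in Dnmt3a2 at 1 day, and 143, 149, 147 and 149.7 CPM and 158, 150.0, 168 and 165 CPM at 5 days. Both showed separate groups at each day in the deposited values, though not with upper-quartile factors. The folds were 1.08 and 1.09 for Arpc5 and 1.08 and 1.09 for Schip1. Schip1 shares 684 bp of exon on the same strand with Iqschfp (5.08 CPM), so the assignment between the pair is uncertain. Pacsin2, an F-BAR protein of endocytosis, differed by 1.22- and 1.15-fold, while Pacsin1, the neuronal relative, gave log2 differences of -0.01 and -0.05 (SE 0.048 each). Clint1, a clathrin interactor, Map7, which links kinesin-1 to microtubules, Nhsl1, Lrch3 and Bnip2 had folds between 1.06 and 1.19 over both days.

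Enzymes made up 6 genes: Car4, Ippk, Galnt9, Gpd1, Pip4k2c and Chst1. Chst1 (ENSMUSG00000027221, chromosome 2, 92599707 to 92615250, plus strand), a sulfotransferase that acts on keratan sulfate, had the highest CPM of the 41. Its level was 463, 483, 442 and 456 CPM in Control and 500.1, 509, 502 and 558 CPM in Dnmt3a2 at 1 day, and 440.2, 435, 472 and 481 CPM and 528, 489, 515 and 543 CPM at 5 days. All 8 Dnmt3a2 libraries lay above all 8 Control libraries, though by little at the margin, and the folds were 1.12 and 1.14 (log2 0.17 ± 0.05 and 0.18 ± 0.05, SE). Gpd1 (ENSMUSG00000023019, chromosome 15, 99717515 to 99725005, plus strand), the cytosolic glycerol-3-phosphate dehydrogenase, had 149, 161, 143 and 157 CPM in Control and 187, 166, 167 and 185 CPM in Dnmt3a2 at 1 day, and 152, 137, 154 and 157 CPM and 167, 157, 164 and 178 CPM at 5 days. At 5 days its highest Control and lowest Dnmt3a2 library were nearly equal. Pip4k2c (ENSMUSG00000025417, chromosome 10, 127197067 to 127211585, minus strand), a phosphatidylinositol 5-phosphate 4-kinase, had 140.3, 145, 138 and 136 CPM in Control and 150.1, 152, 151 and 154 CPM in Dnmt3a2 at 1 day, and 138, 140.1, 140.4 and 140.3 CPM and 159, 169, 162 and 167 CPM at 5 days. The 4 Control libraries of 5 days lay within 138 to 140.4 CPM, and the folds were 1.08 and 1.18 (log2 0.12 and 0.23). Pip4k2a gave 0.11 (SE 0.062) and -0.03 (SE 0.063), and Pip4k2b gave 0.02 and 0.01 (SE 0.046 each), neither called.

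Car4, a membrane-anchored carbonic anhydrase, differed by 1.26- and 1.22-fold. Ippk, the kinase that makes inositol hexakisphosphate, differed by 1.27- and 1.11-fold, and it lies 40.2 kb from Ecm2 on chromosome 13, a gene that met both day conditions but is set aside by the rule. Galnt9, which starts O-linked glycosylation, differed by 1.16- and 1.17-fold.

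Genes acting in the nucleus or on RNA were 6 (Nfkbiz, Tia1, Jade2, Clk2, Tle1 and Bmi1). Nfkbiz (ENSMUSG00000035356, chromosome 16, 55811375 to 55838899, minus strand) encodes an inducible nuclear member of the I-kappa-B family. Nfkbiz was measured at 3.63, 3.169, 2.68 and 3.61 CPM in Control and 4.23, 4.41, 4.24 and 3.95 CPM in Dnmt3a2 at 1 day, and at 3.51, 3.29, 3.24 and 2.67 CPM and 4.46, 3.89, 4.11 and 3.93 CPM at 5 days. All 8 Dnmt3a2 libraries exceeded all 8 Control libraries, with folds of 1.29 and 1.30 (log2 0.37 ± 0.13 and 0.37 ± 0.13, SE). The other 4 tested I-kappa-B genes were not called, with Nfkbia at 0.04 and 0.07 (SE 0.11 each). Jade2, a PHD-finger protein, differed by 1.18- and 1.11-fold (log2 0.24 and 0.15). Its relatives Jade1 (log2 0.24 and 0.12, SE 0.078 each) and Jade3 (0.03 and 0.08, SE 0.13 each) were not called. Tle1, a Groucho corepressor, differed by 1.07- and 1.15-fold, and Bmi1, a subunit of Polycomb repressive complexes, by 1.11- and 1.11-fold. Tia1, an RNA-binding protein of stress granules, differed by 1.13- and 1.16-fold. Clk2, a kinase of splicing factors, differed by 1.12- and 1.11-fold (log2 0.17 and 0.15). Of its relatives, Clk1 gave 0.26 and 0.21 (SE 0.16 each). Clk3 gave 0.08 and 0.04 (SE 0.063 each) and Clk4 gave -0.01 and 0.09 (SE 0.12 each), and none of these relatives was called.

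The remaining 6 genes were BC030499, Ociad2, Sesn3, Ypel2, Vwa3b and Fgfr1op2. BC030499 (ENSMUSG00000037593, chromosome 11, 78290841 to 78296805, plus strand; Rskr in RefSeq) had the largest relative difference of the 41 and the lowest level per length. Its values were 0.727, 1.01, 0.549 and 0.9005 CPM in Control and 1.17, 1.602, 1.303 and 1.45 CPM in Dnmt3a2 at 1 day, and 0.688, 0.566, 0.49 and 1.21 CPM and 1.59, 2.21, 1.47 and 1.65 CPM at 5 days. Replicate 4 of Control at 5 days exceeded the lowest Dnmt3a2 library of 1 day. The folds were 1.80 and 2.45 (log2 0.85 ± 0.29 and 1.29 ± 0.29, SE), and with a pseudocount of 1 CPM the log2 differences fell to 0.42 and 0.68. Ociad2 (ENSMUSG00000029153, chromosome 5, 73322199 to 73341028, minus strand) had 78.1, 81.2, 78.5 and 80.5 CPM in Control and 84.7, 95.2, 91.1 and 99.7 CPM in Dnmt3a2 at 1 day, and 78.03, 81.5, 77.4 and 78.8 CPM and 94.01, 86.9, 95.8 and 94.5 CPM at 5 days. Control libraries were even at both days, and the folds were 1.16 and 1.18. Ociad2 is in the mossy cell marker list of 13 genes, 12 of them measured. The other 11 summed to 252 to 270.4 CPM in Control and 259 to 281 CPM in Dnmt3a2 at 1 day, and to 248 to 276 CPM and 256 to 265 CPM at 5 days, so the groups overlapped at each day. edgeR called none of these other 11 genes at either day, and the medians of the list, Ociad2 included, were 0.09 and 0.01. Sesn3, a sestrin, differed by 1.19- and 1.07-fold, and Ypel2, Vwa3b and Fgfr1op2 by 1.12- to 1.24-fold at either day.

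Across 26 families and complexes to which members belong, 137 other genes were tested. None was called by edgeR at either day, and the calls of the members are not given beside them. At an unadjusted p under 0.05 there were 16 at 1 day (11.7%, against 7.17% of all genes), 6 of them higher and 10 lower in Dnmt3a2, and 22 at 5 days (16.1%, against 8.01% of all genes), 9 higher and 13 lower. DESeq2 called Actr3b, a paralogue of an Arp2/3 subunit, at 1 day (log2 -0.21, adjusted p = 0.00699) and Cacng7 at 5 days, both lower. At 1 day 68 of the 137 were above 0 (all genes, 50.9%) and at 5 days 71 (all genes, 52.8%). Their median log2 difference was -0.00079 at 1 day and 0.010 at 5 days.

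The days were compared within each virus group. The choice of genes did not use this contrast, but it used the same library values. Non-overlap of the virus groups at both days favours genes with little spread between libraries. The shares of the 41 genes beside those of all genes are therefore a description. In Control, 0 of the 41 genes differed between 5 days and 1 day by edgeR's test (0.0% of all genes called), with 3 of the 41 (7.32%) and 3.54% of all genes at an unadjusted p under 0.05, and DESeq2 and limma-voom also called 0. The median log2 change was 0.0087, with 24 genes above 0 and 17 below. In Dnmt3a2, edgeR again called 0 of the 41 and 0.0% of all genes, with 10 of the 41 (24.4%) and 10.8% of all genes at an unadjusted p under 0.05. The median absolute log2 change in Dnmt3a2 was 0.083 for the 41 genes and 0.097 for all genes. DESeq2 called 2 of the 41 in Dnmt3a2, beside 44 of 9361 genes (0.47%), and limma-voom called 0. These were Fam19a1, higher at 5 days by a log2 change of 0.19 (SE 0.045, DESeq2 adjusted p = 0.0165), and Matn2, higher by 0.32 (SE 0.083, DESeq2 adjusted p = 0.0397). By edgeR's quasi-likelihood test their adjusted p was 0.24 and 0.23, so the call rests on the choice of tool.

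Without overlap between the 4 libraries of each day, 6 of the 41 genes (14.6%; 2.7% of all genes) were higher at 5 days than at 1 day in Dnmt3a2: Matn2, Fam19a1, Pip4k2c, Tle1, Clint1 and Sirpa. Ypel2 was the single gene lower in the same way (2.49% of all genes). In Control, Vwa3b was higher at 5 days (1.15% of all genes) and Sema6c lower (1.29% of all genes). These genes were named after their values were seen. A rule that favours little spread between libraries also makes such non-overlap easier to reach. Vwa3b had 18.8, 20.4, 17.9 and 19.3 CPM in Control at 1 day and 24.02, 21.6, 22.7 and 22.1 CPM at 5 days, and 23.4, 25.1, 24.7 and 21.1 CPM and 26.3, 24.6, 24.3 and 28.01 CPM in Dnmt3a2. All 4 Control libraries of 5 days thus lay above all 4 of 1 day, but the difference did not pass edgeR's test (log2 0.24, SE 0.069, adjusted p = 0.999).

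The difference between Dnmt3a2 and Control was larger at 5 days in 26 of the 41 genes and larger at 1 day in 15. BC030499 gave the largest gain, 0.45 (SE 0.41) on the log2 scale, followed by Cacng6 at 0.36 (SE 0.22) and Matn2 at 0.19 (SE 0.11). Ippk had the largest loss, at -0.19 (SE 0.12), and Sesn3 changed by -0.16 (SE 0.081). edgeR called 0 of the 41 for this interaction (0.0% of all genes), with 0 of the 41 and 2.13% of all genes at an unadjusted p under 0.05. The interaction is built from the contrasts on which the genes were chosen, so these counts are a description.

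**Figure D3:**
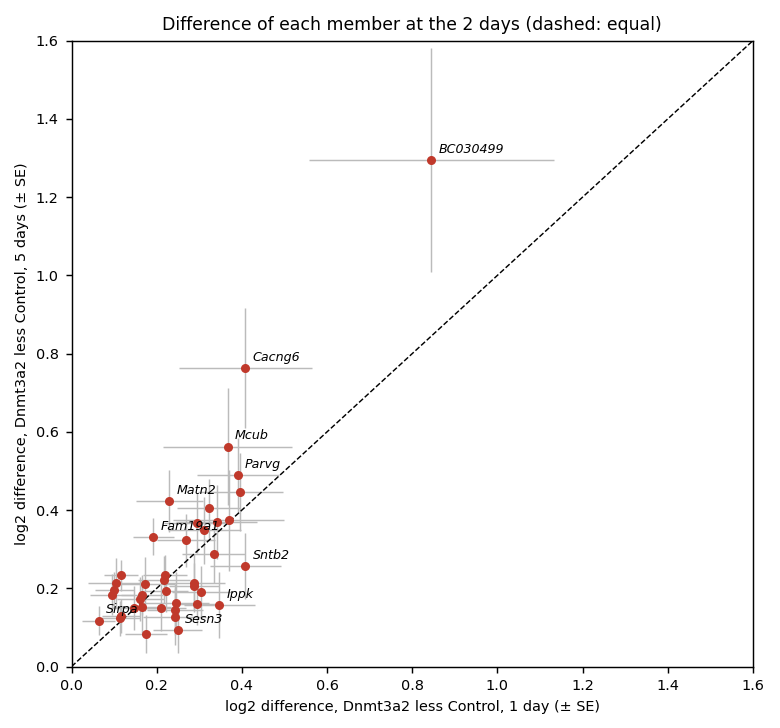
Fitted log2 difference, Dnmt3a2 less Control, at 1 day (x axis) and at 5 days (y axis) for the 41 genes, with SE bars; the dashed line marks equal values. BC030499 and Cacng6 lie highest, and 26 genes lie above the line.

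Single libraries were compared by the mean of the 41 genes, each taken as log2 CPM less its mean over the 16 libraries. Control libraries lay between -0.20 and -0.095 and Dnmt3a2 libraries between 0.087 and 0.21, a separation that the choice of genes fixes. Replicate 4 of Dnmt3a2 at 5 days was the highest at 0.21 and held the highest value of its group for 18 of the 41 genes. Replicate 1 of Dnmt3a2 at 1 day had the lowest Dnmt3a of the Dnmt3a2 libraries, 623 CPM, and a mean of 0.12, within the range of the other 3 libraries of its group (0.087 to 0.15). Those other 3 had 982 to 1153 CPM of Dnmt3a. The rule demanded that replicate 1 too exceed every Control library of 1 day in each gene, which keeps its mean from being low. A relation of the mean to the Dnmt3a level was not tested.

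**Figure D4:**
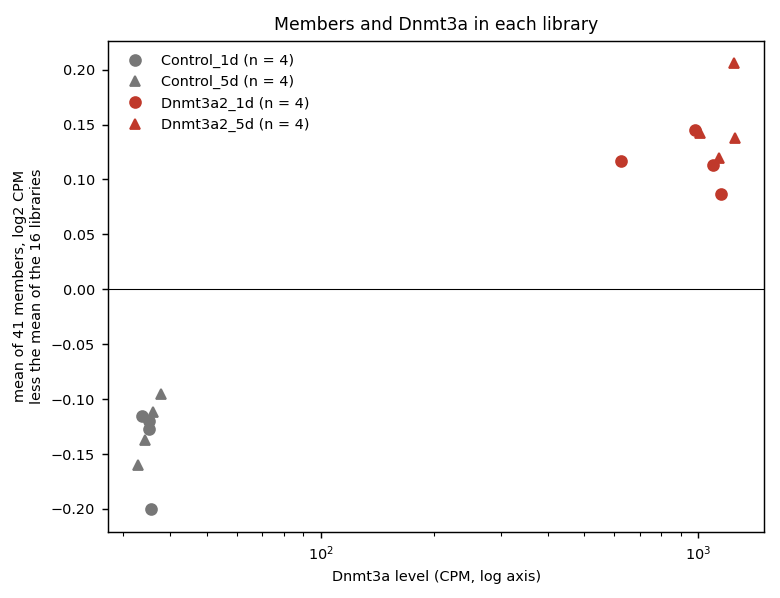
Mean centred log2 CPM of the 41 genes (y axis) against the Dnmt3a level (CPM, log x axis) in each of the 16 libraries, circles for 1 day and triangles for 5 days. Control libraries cluster near 33 to 38 CPM below 0, and Dnmt3a2 libraries lie above 0 from 623 to 1250 CPM, a separation that the choice of genes fixes.

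Level per length, as CPM over the median annotated transcript length in kb, ranged widely among the 41 genes. It was highest for Sirpa (482 CPM per kb) and Chst1 (182 CPM per kb), and lowest for BC030499 (0.778 CPM per kb) and Nfkbiz (0.997 CPM per kb). The median length is taken over all annotated transcripts of a gene, 798 bases for Sirpa and 2680 for Chst1, so the order depends on the annotation. By CPM alone Chst1 (489 CPM) lay above Sirpa (385 CPM). The genes were spread over the genome: chromosome 11 held 5 of them, chromosomes 3, 10 and 15 held 4 each, and chromosomes 12, 14, 17, 18 and 19 held 0. The closest pair of the 41, Pacsin2 and Parvg, lies 859 kb apart on chromosome 15. Exons of 15 of the 41 genes overlap those of another annotated gene, and in 7 of these the other gene was itself measured: besides Chrd, Drd5 and Schip1 these are Ippk with Cenpp, Lrch3 with Iqcg, Pip4k2c with F420014N23Rik and Fgfr1op2 with Ints13, each on the opposite strand.

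Promoters were read because the enzyme overexpressed acts on CpG sites. RefSeq windows on GRCm38.p6, from 250 bases before to 50 after a start site, matched 33 of the 41 genes and 12361 of the 16907. Of the 33, 10 had more than 1 window, of which the most upstream was used. The start site lay within 100 bases of the GENCODE gene start in 22 of the 33 and over 1000 bases inside the gene in 6, so a window need not be the promoter in use in hippocampus. Nfkbiz, Sntb2, Matn2, Pnck, Jade2, Gpd1, Clint1 and Sirpa had no entry. CpG counts of the 33 ranged from 1 (Chst1) to 55 (Map7), with a median of 23 against 20 for all genes. The ratio of observed to expected CpG had a median of 0.73 against 0.74, and reached 0.6 in 23 of 33 (69.7%) against 67.4% of all genes. In the 10634 genes with a window and a CPM within the range of the members, the median CpG count was 21. Their median ratio was 0.76, and 72.1% of them reached 0.6. The 3 windows printed first are CpG-poor and the next 3 CpG-rich, all on the plus strand and written 5′ to 3′ with each CpG in capitals: Chst1 chr2:92600867-92601166 with 1 CpG, Fam19a1 chr6:96112904-96113203 with 5, Cacng6 chr7:3424412-3424711 with 8, Chrd chr16:20732877-20733176 with 34, Drd5 chr5:38319259-38319558 with 38 and Map7 chr10:20148670-20148969 with 55. The start sites of Fam19a1 and Chrd match the gene start, whereas those of Drd5, Map7, Cacng6 and Chst1 lie 142, 449, 467 and 1410 bases inside the gene.
Chst1: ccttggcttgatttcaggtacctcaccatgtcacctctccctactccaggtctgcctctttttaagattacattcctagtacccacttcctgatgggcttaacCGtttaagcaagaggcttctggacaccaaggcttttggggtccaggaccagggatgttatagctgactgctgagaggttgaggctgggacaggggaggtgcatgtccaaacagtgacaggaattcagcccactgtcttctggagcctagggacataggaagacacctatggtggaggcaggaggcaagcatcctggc
Fam19a1: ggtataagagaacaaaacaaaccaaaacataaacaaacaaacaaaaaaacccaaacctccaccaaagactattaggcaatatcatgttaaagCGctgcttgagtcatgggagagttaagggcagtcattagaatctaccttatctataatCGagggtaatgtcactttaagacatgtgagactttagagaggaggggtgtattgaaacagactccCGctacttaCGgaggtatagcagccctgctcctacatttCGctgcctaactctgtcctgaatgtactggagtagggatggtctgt
Cacng6: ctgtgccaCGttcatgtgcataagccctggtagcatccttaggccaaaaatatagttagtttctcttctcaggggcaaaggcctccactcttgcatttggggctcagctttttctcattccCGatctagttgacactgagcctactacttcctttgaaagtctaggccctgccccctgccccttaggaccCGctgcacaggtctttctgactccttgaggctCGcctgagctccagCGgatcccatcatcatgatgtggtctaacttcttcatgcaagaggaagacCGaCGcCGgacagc
Chrd: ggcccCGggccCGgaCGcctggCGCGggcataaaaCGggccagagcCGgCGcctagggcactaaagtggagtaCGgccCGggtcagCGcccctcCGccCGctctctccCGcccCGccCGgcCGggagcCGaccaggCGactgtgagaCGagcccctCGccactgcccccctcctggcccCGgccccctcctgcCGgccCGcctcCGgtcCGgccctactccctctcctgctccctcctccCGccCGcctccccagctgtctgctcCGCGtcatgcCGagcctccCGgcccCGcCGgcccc
Drd5: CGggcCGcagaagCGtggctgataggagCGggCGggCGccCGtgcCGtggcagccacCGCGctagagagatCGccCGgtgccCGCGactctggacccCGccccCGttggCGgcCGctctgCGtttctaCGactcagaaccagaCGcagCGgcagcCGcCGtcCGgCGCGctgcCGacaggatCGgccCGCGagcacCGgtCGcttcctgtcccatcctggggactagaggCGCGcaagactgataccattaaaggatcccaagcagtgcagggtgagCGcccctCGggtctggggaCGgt
Map7: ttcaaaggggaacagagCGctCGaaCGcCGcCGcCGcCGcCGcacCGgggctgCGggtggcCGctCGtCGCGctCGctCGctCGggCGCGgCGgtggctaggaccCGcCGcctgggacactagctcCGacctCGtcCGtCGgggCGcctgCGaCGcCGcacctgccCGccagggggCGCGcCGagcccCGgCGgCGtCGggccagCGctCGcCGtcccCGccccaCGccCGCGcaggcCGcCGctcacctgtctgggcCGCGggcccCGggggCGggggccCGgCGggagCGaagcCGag

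Folds at 5 days were 1.14 for Chst1, 1.26 for Fam19a1 and 1.70 for Cacng6 among the CpG-poor windows above. Among the CpG-rich ones they were 1.32 for Chrd, 1.25 for Drd5 and 1.06 for Map7. These windows are examples and do not stand for the 33. BC030499, Cacng6, Mcub and Parvg, with the largest mean differences of the 41, had 3, 8, 11 and 6 CpG, below the median of 23. Their 5-day folds were 2.45, 1.70, 1.48 and 1.40. Olfml2b, next in difference, had 25 CpG and a fold of 1.36. A relation of CpG count to the difference was not tested. Motifs were searched on both strands of the 33 windows. The CRE TGACGTCA was in 0 of 33 (3.07% of all genes) and its half-site TGACG in 7 (21.2%; 29.9% of all genes), every CRE holding a half-site. The AP-1 motif TGANTCA was in 3, Fam19a1, Schip1 and Ippk (9.09%; 4.97% of all genes), and the EGR motif GCGNGGGCG in 6 (18.2%; 10.4% of all genes). The E-box CACGTG was in 4 (12.1%; 9.75% of all genes) and the TATA motif TATAAA in 2, Ociad2 and Car4 (6.06%; 7.35% of all genes). These are matches of letters in a window and no measure of binding.

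**Figure D5:**
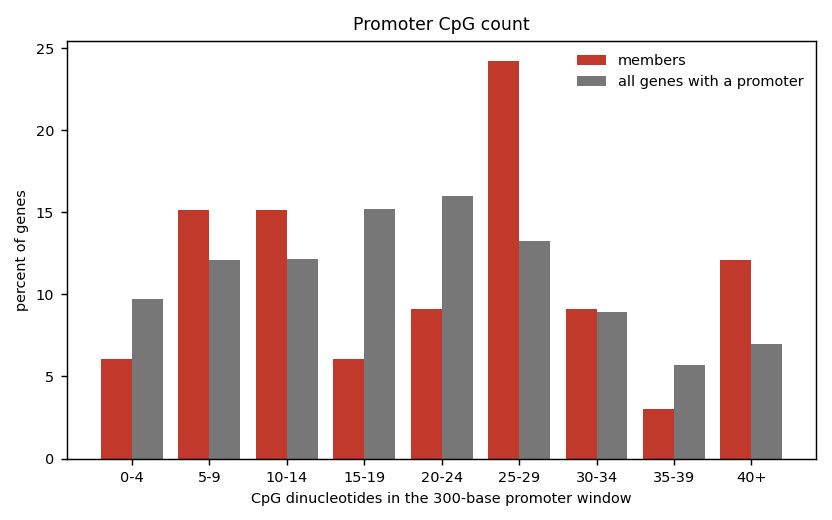
Share of genes (percent, y axis from 0) by the number of CpG dinucleotides in the 300-base promoter window, for 33 members and for 12361 genes. The members spread over the whole range, with 8 of 33 at 25 to 29 CpG.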

How the data were processed

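The authors' deposited files give estimated counts per gene (26.2% of the values are not whole) and log2 CPM per library. Per the submitters' processing notes, Trim Galore 0.6.4, kallisto 0.4.6, edgeR 3.17 and GRCm38.p6 were used, and no strand setting is recorded there. Recomputing log2 CPM in edgeR from those counts, scaled by the trimmed mean of M values (TMM), matched the authors' values within 5.33e-15. CPM printed in the text is 2 to the power of the deposited log2 CPM, so a count of 0 reads as about 0.0679 CPM.

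The 41 genes were chosen from the deposited log2 CPM by the rule in the text. Estimated counts were rounded to whole numbers, filtered with filterByExpr by group, normalized by TMM and fitted with edgeR 4.0.16 (robust quasi-likelihood, R 4.3.3), with a term for each of the 4 groups over all 16 libraries. P-values were adjusted by the Benjamini-Hochberg method over 16899 genes, with a threshold of 0.05. Errors are SEs of log2 differences unless another error is named. Each edgeR SE is the absolute log2 difference divided by the square root of the quasi-likelihood F. It rests on a spread pooled over the 16 libraries and moderated across genes, and is not the spread of 1 gene in the groups compared. DESeq2 1.42.0, limma 3.58.1 (voom and trend), other scalings, filters and pseudocounts, a replicate block and fits without single libraries were alternatives. The DESeq2 fit left adjusted p-values undefined for some genes, which stayed out of its counts.

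Named genes are the 10 with the largest mean of the 1-day and 5-day differences, the 6 with the highest CPM, and members of a marker or pathway list; Fam19a1, Matn2, Drd5, Vwa3b and the genes given by fold alone were added after their values were seen. The members and lists were chosen with earlier results of these data known. The chi-square per gene between libraries was 4.23 to 40.3 over 120 pairs, so no library was a copy of another.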

Additional observations from a re-analysis of the deposited data

Results flagged for a closer look

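In each of the 164 groups of 4 libraries (41 genes by 4 groups), the distance of the highest or lowest library to its nearest neighbour was divided by the range of the group. In 9 groups this share passed Dixon's critical value, and chance gives about 1 group in 20, or about 8 of the 164, so the number of flags is near what chance gives. Mcub had a share of 0.894 in Dnmt3a2 at 1 day, where replicate 2 stood at 3.64 CPM and the others at 3.10 to 3.15 CPM. Drd5 had 0.888 in Dnmt3a2 at 5 days, with replicate 4 at 31.9 CPM above 28.5 to 28.9 CPM. Jade2 had 0.831 and Chst1 0.847 in Dnmt3a2 at 1 day, both through a high replicate 4, at 80.0 CPM against 63.5 to 66.0 CPM for Jade2 and 558 CPM against 500.1 to 509 CPM for Chst1.

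The other 5 flags were in Control. At 1 day, replicate 4 was low for Sesn3 (share 0.864, 66.3 CPM against 71.7 to 72.6 CPM) and Clint1 (share 0.842, 45.2 CPM against 49.4 to 50.2 CPM), and replicate 1 was high for Sirpa (share 0.853, 384 CPM against 368 to 370.4 CPM). At 5 days, replicate 1 was high for Ypel2 (share 0.861, 23.7 CPM against 22.2 to 22.4 CPM) and low for Pip4k2c (share 0.849, 138 CPM against 140.1 to 140.4 CPM).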

How the results depend on the processing

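The sign of the Dnmt3a2 difference is fixed by the choice of genes, which leaving out libraries cannot turn, so that it held in all 28 settings (1148 values a day) says nothing of stability. With a pseudocount of 1 the log2 difference moved to 0.42 and 0.68 for BC030499 and, at 5 days, to 0.54 for Cacng6. The median difference stayed within 0.22 to 0.27 at 1 day and 0.19 to 0.22 at 5 days. Leaving out a library cannot remove a gene by the rule, and the count then ran from 45 to 72 (Control 1 day replicate 4 left out, 72), reaching 105 without the choroid-rich pair and 166 without the interferon-rich trio. The rule gave 2 genes with a margin of 1.1 times. It gave 42 genes without a TMM factor (31 of the 41), 42 with DESeq2 size factors (all 41) and 34 with upper-quartile factors (30 of the 41).

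In Dnmt3a2, 5 days against 1 day, DESeq2 called 2 of the 41 genes and 44 of all genes, and omitting the low-count filter gave 6 of all genes. Leaving out single libraries gave 0 to 1 of all genes (1 without Dnmt3a2 5 days replicate 1). For all genes, Dnmt3a2 against Control at 1 day (15 called) gave 23 at an adjusted p under 0.10, 59 by DESeq2, 34 without the filter, 7 with only the groups compared, and 6 to 22 without single libraries (6 without Control 1 day replicate 2, 7 without Dnmt3a2 1 day replicate 3). At 5 days (54 called) the counts were 104, 143 by DESeq2, 94 with only the groups compared, 90 without the choroid-rich pair, 105 without the interferon-rich trio, and 22 to 82 without single libraries (22 without Dnmt3a2 5 days replicate 4). The causes were not tested.

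The labels tie replicate numbers to no shared source. Of 24 same-number pairs, 8 correlated above 0.1 (range -0.0856 to 0.381). Their median was 0.022, against 0.0029 for pairs of unlike number, and the numbers were not taken as pairs. Of 16 libraries, 7 correlated best with their own number among the 4 numbers. Replicate 1 had the highest summed endothelial markers in 4 of 4 groups, and the highest mural markers and interferon-response genes in 3 of 4, so a shared feature of equal numbers was not excluded. With a replicate block the medians were 0.24 and 0.21, all-gene calls were 17 and 65, and 0 of the 41 genes were called between days. Low-count members such as BC030499 and Cacng6 carry the widest errors.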
